A study of Mus musculus with 24 samples.

Results

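Homeobox and Pax genes outside the Hox clusters encode transcription factors that pattern the embryo and set cell identity. They were taken here by gene symbol, as the numbered genes of the Dlx, Emx, En, Evx, Gbx, Gsx, Irx, Lhx, Meis, Msx, Nkx, Otx, Pax, Pbx, Pitx and sine oculis (Six2, Six4, Six5 and others) families, and no measured value entered the choice. This gave 74 genes in 16 families among the 27080 genes counted, from 14 Nkx and 9 Pax genes down to 2 each for Emx, En, Evx, Gbx, Gsx and Otx. The data were chromatin immunoprecipitation followed by sequencing (ChIP-seq) of basal cells of the mammary gland, sorted from untreated C57BL/6 female mice. Cells were divided by Lgr5, a receptor that strengthens Wnt signalling, and Tspan8, a membrane protein of the tetraspanin family, into Lgr5+Tspan8hi, Lgr5+Tspan8-, Lgr5-Tspan8hi and Lgr5-Tspan8- cells. H3K4me3 and H3K27me3 were each measured in 2 libraries of each subpopulation, 16 libraries in all. The labels give no ages, and are silent on how Lgr5 was detected and on whether the 2 libraries of a group stem from different animals. The p-values therefore reflect the spread between these samples alone, which may be technical.

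H3K4me3, trimethylation of lysine 4 on histone H3, marks the starts of active genes and, at lower levels, of genes that are held ready. H3K27me3 is laid down by Polycomb repressive complexes and covers silent developmental genes, often over the whole gene. Genes that carry both are called bivalent when the marks sit on the same chromatin, which separate precipitations of many cells cannot show. Most homeobox and Pax genes outside the Hox clusters are active in a few embryonic tissues and are classic Polycomb targets elsewhere. Pbx and Meis proteins are a different kind of homeodomain protein, with a short loop inserted in the homeodomain (the TALE class, which also holds the Irx family), and serve in many tissues as partners of other homeodomain factors. Msx1 and Msx2 act downstream of bone morphogenetic proteins in epithelia and mesenchyme, the mammary bud included.

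Total counts per library ran from 1472251 to 4740371 for H3K4me3 and from 2639862 to 6972189 for H3K27me3. Levels are given as CPM (counts scaled to a common library size) with TMM normalization, which sets the libraries to a common level through the genes that differ least. H3K4me3 counts behaved as counts around the gene start, because genes whose starts lay less than 1 kb apart had a median count ratio of 1.01 (1671 pairs). H3K27me3 counts grew with gene length (Spearman's rho = 0.80 across genes), so H3K27me3 levels are compared between genes as CPM per kb of the RefSeq gene span. Replicates were not repeats of 1 library, since the chi-square of their counts was 3.07 to 5.91 times its degrees of freedom. H3K4me3 at the sorting gene Tspan8 followed the labels, at 69.4 to 90.3 CPM in the Tspan8hi and 21.3 to 31 CPM in the Tspan8- libraries. At Lgr5 the sides overlapped, with 61.7 CPM or more in Lgr5+ and 51.9 to 80.8 CPM in Lgr5- libraries. Of 12 basal markers 10 lay above the median gene in H3K4me3, with Krt5 at 141 CPM, Krt14 at 131 CPM and Acta2 at 118 CPM. The master regulator of basal cells Trp63 had 1.78 CPM and the smooth muscle gene Mylk 5.82 CPM, and whether another start of these genes carries the mark was not tested. Of 13 luminal markers 12 also lay above the median gene, as did 6 of 11 fibroblast, 3 of 6 Schwann and neural, 1 of 7 endothelial, 0 of 7 immune and 0 of 5 adipocyte markers, and no marker of these lists was at 0. In sorted bulk samples a mark in fewer cells and less of the mark in each cell cannot be told apart.

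Most of these genes carried dense H3K27me3 per kb of gene span. The 17 that did not included the 6 Irx genes, the 4 Pbx genes, Meis1, Meis3, Six2, Six4, Six5 and Pax8. The median gene had 0.603 CPM per kb of H3K27me3 and 28.1 CPM of H3K4me3, and the densest 10% of genes had at least 2.83 CPM per kb. The 74 members had medians of 6.41 CPM per kb and 26.7 CPM. With these values as boundaries, chosen after the levels were seen and used only to describe, 36 members (48.6%) had dense H3K27me3 with H3K4me3 below the median gene, against 7.97% of the 25189 genes with a length. Dense H3K27me3 together with H3K4me3 at or above the median gene held for 21 members (28.4%) against 2.03% of genes. H3K4me3 without dense H3K27me3 held for 14 members (18.9%) against 48.0%, and neither for 3 members (4.05%) against 42.0%. The members closest to the boundaries were Meis2 with 2.99 CPM per kb just inside and Irx6 and Pax8 with 2.68 CPM per kb just outside for H3K27me3, and Pax9 with 30 CPM inside and Nkx2-4 with 27.6 CPM outside for H3K4me3. Taking each library with its own boundary, 53 members were dense in all 8 H3K27me3 libraries, 14 in none and 7 in some. These classes rest on the division by span, although the region counted is not given. Undivided counts put far fewer members in the densest 10%, as given near the end. Undivided, Pbx3 had 170 CPM and Dlx2 51.5 CPM. Of the 74 genes, 43 overlap another annotated gene or start within 2 kb of one, which the counts of that gene may share.

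**Figure D1:**
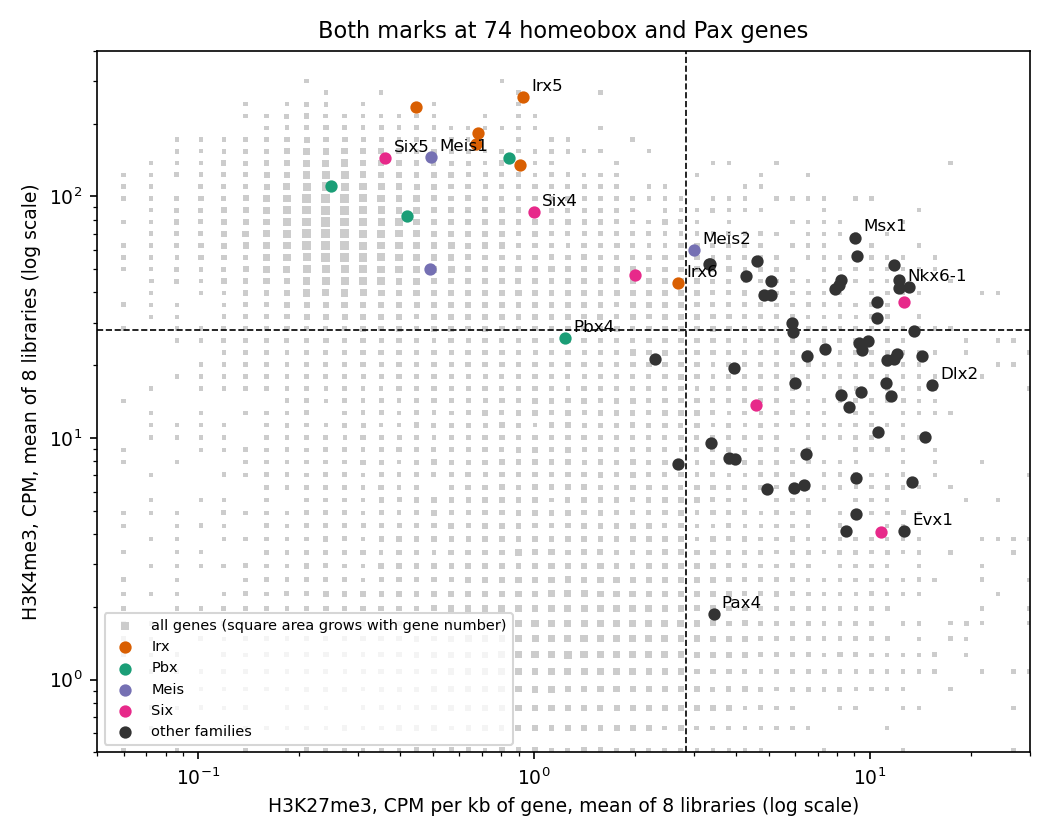
H3K27me3 (horizontal, CPM per kb of gene) and H3K4me3 (vertical, CPM) for 74 members as circles and for all genes with a length as grey squares that grow with the number of genes, each the mean of 8 libraries per mark on log axes, with genes outside the axis ranges not drawn. Dashed lines mark the densest 10% of genes (2.83 CPM per kb) and the median gene (28.1 CPM), and the Irx, Pbx and Meis genes other than Meis2 lie left of the first line.

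The Irx family, Iroquois homeobox factors that pattern neural tube, heart and limb, had the highest H3K4me3 of the 16 families, with a median of 174 CPM over 6 genes and 0.793 CPM per kb of H3K27me3. Irx5 (chromosome 8, 92357796 to 92361456, GRCm38.p6) had 256 and 251 CPM in the libraries of Lgr5+Tspan8hi cells, 266 and 256 CPM in those of Lgr5+Tspan8-, 287 and 265 CPM in those of Lgr5-Tspan8hi and 232 and 245 CPM in those of Lgr5-Tspan8- cells, a mean of 257 ± 16.4 CPM (SD, n = 8). These libraries lay close together, and 99.98% of genes had less. Irx3 (chromosome 8, 91798511 to 91801654) had 167, 214, 156, 218, 211, 178, 138 and 174 CPM in the same order, with pairs of replicates as far apart as the subpopulations. The mean of Irx3 was 182 ± 29.4 CPM. Irx2, Irx1 and Irx4 had means of 235, 165 and 134 CPM. Irx6, the last gene of the chromosome 8 cluster, stood apart with 43.7 ± 6.87 CPM of H3K4me3 and 2.68 ± 0.569 CPM per kb of H3K27me3, the lowest and the highest values of the family. The start of Irx5 lies near that of Crnde and the start of Irx3 near that of Irx3os, so the H3K4me3 of these pairs cannot be told apart.

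**Figure D2:**
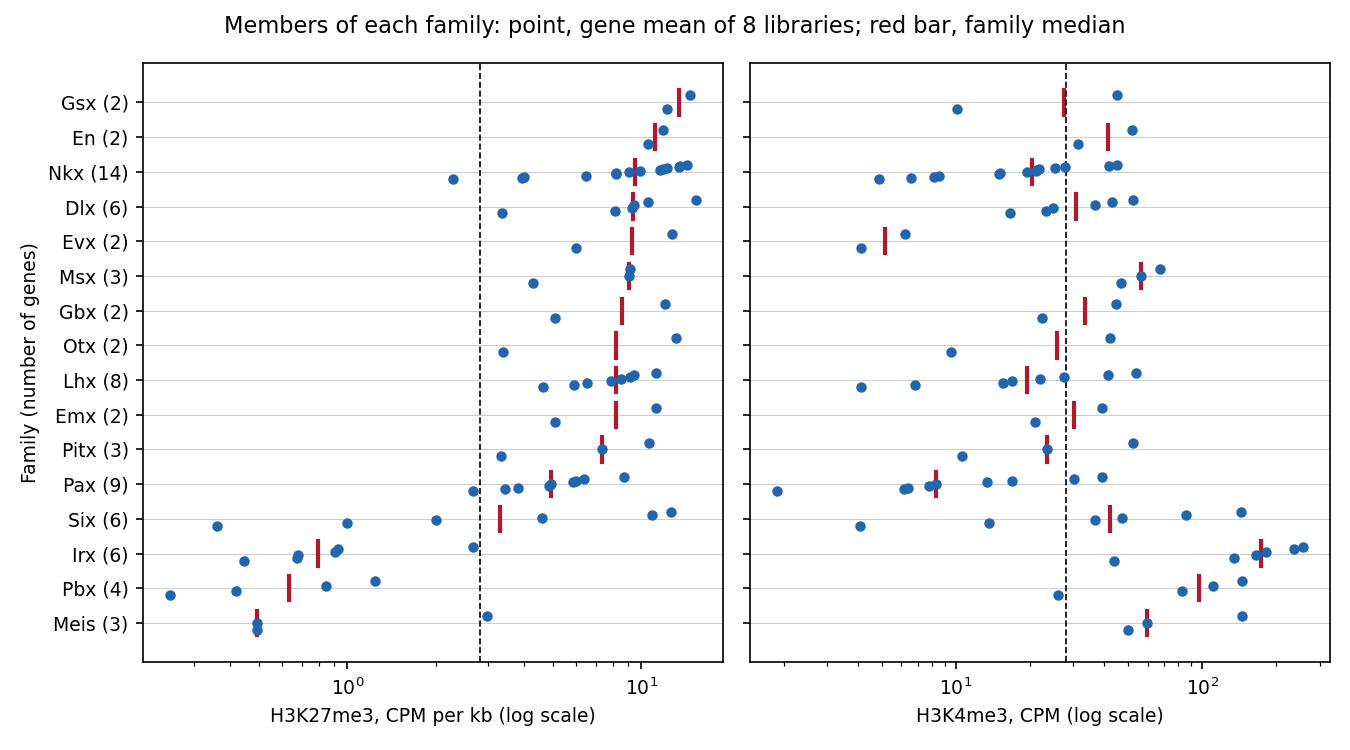
Each point is the mean of 8 libraries for 1 gene, with H3K27me3 in CPM per kb on the left and H3K4me3 in CPM on the right, both on log axes, families ordered by their median H3K27me3 (red bars) and gene numbers in brackets. Dashed lines mark the densest 10% of genes and the median gene, and Irx (0.793 CPM per kb), Pbx (0.632) and Meis (0.493) have the lowest H3K27me3 medians.

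The TALE partners Pbx and Meis also carried H3K4me3 with little H3K27me3. Pbx3 had 144 ± 13.9 CPM of H3K4me3 (SD, n = 8) and 0.846 CPM per kb of H3K27me3. Pbx2 had 82.6 CPM and 0.418 CPM per kb. Pbx4, with 25.9 CPM, was the lowest of the family and fell in neither class. Meis1, known in blood stem cells and leukaemia, had 146 ± 15.1 CPM of H3K4me3 and 0.493 CPM per kb of H3K27me3, and its libraries ran from 125 to 165 CPM. Meis3 had the lowest values of its family, 50.1 CPM and 0.491 CPM per kb. Meis2 was the exception among these 7 genes, with 59.8 ± 9.63 CPM and 2.99 ± 0.470 CPM per kb over 206274 bases, where it overlaps G630016G05Rik.

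The sine oculis family, partners of Eya proteins in eye, muscle and kidney, was split. Six5 and Six4 had 144 and 85.9 CPM of H3K4me3 with 0.361 and 1.00 CPM per kb of H3K27me3, the start of Six4 lying near that of Mnat1, a general transcription gene whose signal cannot be told apart from it. Six6, an eye gene, had 10.9 CPM per kb of H3K27me3 and the lowest H3K4me3 of the family at 4.07 CPM. Six6 alone in the family neither overlaps nor starts near another gene, so the family medians of 42.0 CPM and 3.30 CPM per kb include 5 genes whose counts may be shared.

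Both marks stood at every Msx and En gene and at some members of 11 other families. Msx1 (chromosome 5, 37820491 to 37824585) had 67.4 ± 6.84 CPM of H3K4me3 (SD, n = 8), the highest among members with dense H3K27me3. It overlaps Msx1os, which its counts may include. Its H3K27me3 was 5.48, 7.39, 9.60, 9.75, 8.93, 10.1, 8.24 and 13.0 CPM per kb, with the subpopulations in the same order. Both Lgr5+Tspan8hi libraries were the lowest of the 8 and an Lgr5-Tspan8- library the highest. Msx2 had 46.8 ± 4.89 CPM and the lowest density of its family, 4.28 ± 1.35 CPM per kb, and Msx3 the highest, 9.14 ± 2.34 CPM per kb with 56.4 CPM of H3K4me3. Of the Dlx genes, which pattern jaw, limb and forebrain and lie in 3 neighbouring pairs, Dlx3 had the most H3K4me3 and the least H3K27me3 (52.4 CPM and 3.34 CPM per kb). Dlx2 was the reverse, with 16.6 CPM and the highest H3K27me3 density of all 74 members, 15.4 ± 2.92 CPM per kb. En2 and En1, engrailed genes of the midbrain and hindbrain, had 51.8 and 31.4 CPM with 11.8 and 10.5 CPM per kb. The brain and spinal cord genes Gsx1, Gbx1, Emx1 and Otx1 each had more H3K4me3 (45.0, 44.7, 39.2 and 42.1 CPM) than Gsx2, Gbx2, Emx2 and Otx2 (10.1, 22.3, 21.0 and 9.57 CPM). Evx2 had 6.21 CPM, the more H3K4me3 of the 2 Evx genes. Pitx3, a lens and dopamine neuron gene, had the most H3K4me3 of its family, 52.4 CPM, with 3.32 CPM per kb of H3K27me3.

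H3K27me3 without H3K4me3 above the median gene was the rule for Nkx, Lhx and Pax genes, with 11 of 14, 6 of 8 and 6 of 9 members, and for both Evx genes. The densest Nkx gene was Nkx1-1 at 14.3 ± 2.55 CPM per kb. Nkx6-2 and Nkx6-1, spinal cord and pancreas factors, had the family's highest H3K4me3 at 45.0 and 41.9 CPM and dense H3K27me3 too. Nkx2-6 had the lowest H3K4me3 of the family, 4.87 CPM. Lhx genes carry LIM domains beside the homeodomain. Lhx1 was the densest at 11.2 CPM per kb and Lhx4 the least dense at 4.62 CPM per kb with the family's highest H3K4me3, 53.8 CPM. Lhx5 had the lowest H3K4me3, 4.13 CPM. Lhx2, a factor of eye, forebrain and hair follicle stem cells, lay just under the median gene with 27.5 ± 3.92 CPM and had 5.92 ± 1.26 CPM per kb. Pax genes, named for their paired domain, had a median of 8.27 CPM of H3K4me3, close to the 5.16 CPM of Evx and below the other families. Pax6, the eye gene, had 13.4 ± 4.15 CPM and the family's densest H3K27me3, 8.69 ± 1.69 CPM per kb. Pax2 had the most H3K4me3, 39.2 CPM, and Pax4, a pancreas gene, the least of all members, 1.87 CPM, under the count filter of the H3K4me3 tests. Pax8, a thyroid and kidney gene, had the lowest density of the family.

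Promoter sequence is a property that the choice of members did not use. RefSeq promoters of GRCm38.p6, taken from 250 bases before to 50 bases after the start, were found for 53 of the 74 members, and for 41 of them within 1 kb of the gene start used here. The dinucleotide CG, which reads the same on both strands and is unmethylated in the CpG islands where both marks are usually found, was counted in each 300-base window. Members had a median of 19 CG, against 13 over 18458 genes, and 88.7% of members held at least 10, against 56.6% of all genes. By class the medians of members were 21 CG with both marks, 17 with H3K27me3 and 21 with H3K4me3, and those of all genes 21, 6 and 22. With neither the medians were 13 CG for members and 3 for all genes, and 2 of the 53 members but 7384 of the 18458 genes fell there, so the classes also hold different shares of the 2 sets. No difference in CG number was tested. The windows below run 5′ to 3′ on the strand of the gene, with each CG in capitals, and stand for 1 gene with H3K4me3 (Irx3), 2 with both marks (Msx1 and Nkx6-1) and 1 with H3K27me3 (Evx1).
Irx3, chr8:91801605-91801904, minus strand, 14 CG: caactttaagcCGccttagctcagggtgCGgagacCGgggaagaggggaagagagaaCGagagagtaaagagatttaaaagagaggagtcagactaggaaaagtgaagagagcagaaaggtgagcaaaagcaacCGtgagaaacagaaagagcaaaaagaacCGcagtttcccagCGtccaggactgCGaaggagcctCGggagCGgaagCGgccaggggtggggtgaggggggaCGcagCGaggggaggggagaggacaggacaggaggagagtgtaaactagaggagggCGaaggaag
Msx1, chr5:37824536-37824835, minus strand, 29 CG: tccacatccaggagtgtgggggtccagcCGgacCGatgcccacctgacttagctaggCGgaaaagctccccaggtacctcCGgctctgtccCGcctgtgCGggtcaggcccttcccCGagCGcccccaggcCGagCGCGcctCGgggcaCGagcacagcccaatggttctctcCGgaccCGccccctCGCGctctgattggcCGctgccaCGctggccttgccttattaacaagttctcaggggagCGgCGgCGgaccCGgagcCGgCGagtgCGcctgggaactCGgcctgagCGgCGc
Nkx6-1, chr5:101664662-101664961, minus strand, 40 CG: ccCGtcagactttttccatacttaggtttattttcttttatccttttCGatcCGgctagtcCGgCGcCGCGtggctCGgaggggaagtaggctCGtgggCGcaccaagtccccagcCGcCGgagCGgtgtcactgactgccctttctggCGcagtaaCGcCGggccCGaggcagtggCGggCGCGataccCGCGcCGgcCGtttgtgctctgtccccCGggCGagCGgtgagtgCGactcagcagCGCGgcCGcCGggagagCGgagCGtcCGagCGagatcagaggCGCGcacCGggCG
Evx1, chr6:52313248-52313547, plus strand, 12 CG: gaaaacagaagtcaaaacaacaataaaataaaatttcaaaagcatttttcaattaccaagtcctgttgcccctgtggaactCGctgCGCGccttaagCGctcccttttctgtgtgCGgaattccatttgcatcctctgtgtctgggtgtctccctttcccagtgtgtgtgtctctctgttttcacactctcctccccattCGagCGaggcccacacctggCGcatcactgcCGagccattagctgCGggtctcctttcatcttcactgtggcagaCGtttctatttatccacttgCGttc
GC content was 56.0% for Irx3, 70.0% for Msx1, 67.3% for Nkx6-1 and 48.7% for Evx1. Evx1, which overlaps the antisense gene Evx1os, had the fewest CG of these 4 windows, and the gene carried 12.7 ± 3.68 CPM per kb of H3K27me3 and 4.11 ± 1.69 CPM of H3K4me3 (SD, n = 8). Irx3, with 14 CG, had 182 CPM of H3K4me3, so the order of CG number was not the order of H3K4me3 in this set.

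Tspan8hi libraries were set against Tspan8- libraries over both Lgr5 states, 4 libraries on each side. No H3K27me3 difference at the 74 members passed an adjusted p under 0.05 (edgeR quasi-likelihood test, Benjamini-Hochberg adjustment over 22099 genes), where 0.335% of all genes did. DESeq2 called 8 members and 2.15% of all genes, limma-voom 6 members and 1.54% of all genes, and these members were all lower in Tspan8hi. At an unadjusted p under 0.05, 33 members were lower, against 7.60% of all genes, and 2 were higher, against 5.27%. The median log2 fold change of members was -0.25, against 0.02 over all genes, and 60 of 74 (81.1%) lay below 0, against 47.3% of genes. In 8 members the 4 Tspan8hi libraries all lay below the 4 Tspan8- libraries (10.8%, against 3.54% of genes), namely Evx1, Lhx6, Meis2, Nkx2-5, Nkx2-6, Pax2, Pax3 and Pbx4. In 1 member all 4 lay above (1.35%), where 2.68% of genes were. The summed H3K4me3 of the 11 fibroblast markers was 204 to 292 CPM in Tspan8hi and 257 to 350 CPM in Tspan8- libraries. That of the 12 basal markers was 910 to 1086 and 1006 to 1216 CPM, and that of the 7 immune markers 34.6 to 42.2 and 22.6 to 40.7 CPM. The sides overlapped in every marker list, and the part of these sums in the H3K27me3 differences was not tested.

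Meis2 had the smallest p of the members. Its H3K27me3 was 2.33 and 2.65 CPM per kb in Lgr5+Tspan8hi and 2.70 and 2.82 in Lgr5-Tspan8hi libraries, against 3.40 and 3.24 in Lgr5+Tspan8- and 3.01 and 3.80 in Lgr5-Tspan8- libraries. The 2 sides did not overlap. The log2 fold change was -0.36 ± 0.086 (SE), with an edgeR adjusted p of 0.0595, and 7 of 16 alternatives took it past the threshold (adjusted p from 0.000156 to 0.390). At Evx1, a factor of the posterior embryo and of spinal interneurons (chromosome 6, 52313498 to 52318389), H3K27me3 was 8.74, 10.8, 8.47 and 12.6 CPM per kb in Tspan8hi and 14.3, 12.9, 13.6 and 20 CPM per kb in Tspan8- libraries. Here too the sides did not overlap, and 1 Lgr5-Tspan8- library was far above the rest. The log2 fold change was -0.57 ± 0.15 (edgeR adjusted p = 0.0786). Pax3, a neural crest and muscle factor, had 4.66, 5.56, 5.34 and 5.47 CPM per kb against 6.24, 6.29, 6.17 and 8.20 CPM per kb. Its log2 fold change was -0.35 ± 0.091 (edgeR adjusted p = 0.0800). The 3 LIM genes Lhx9, Lhx3 and Lhx6, of gonad, motor neurons and interneurons, had log2 fold changes of -0.38, -0.50 and -0.36 and edgeR adjusted p of 0.0756, 0.0941 and 0.106. Of these only Lhx6 had sides that did not overlap, with 6.33 to 7.61 against 7.85 to 11.1 CPM per kb.

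With TMM scaling every Lhx gene (8 of 8, median -0.30) and every Pax gene (9 of 9, median -0.28) had a log2 fold change below 0, as did 12 of 14 Nkx genes (median -0.28). Irx and Pbx genes had medians of 0.24 and 0.15, with 2 of 6 and 1 of 4 genes below 0, and none was called. With loess offsets the medians were -0.05 for Lhx (6 of 8 below 0), -0.06 for Pax (7 of 9), -0.03 for Nkx (8 of 14), 0.15 for Irx and 0.06 for Pbx, and no difference between families was tested. Among genes given whatever their values, Msx1, Msx2, Lhx2 and Pax6 had log2 fold changes of -0.38, -0.42, -0.30 and -0.28, and Meis1 and Irx3 of 0.08 and 0.18, with edgeR adjusted p from 0.193 to 0.937.

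Libraries differed in how much of the H3K27me3 count fell on densely marked genes in general. In the densest 10% of genes that are not members, the Tspan8hi libraries held 13.1% and 14.5% (Lgr5+) and 14.6% and 15.2% (Lgr5-) of counts, and the Tspan8- libraries 15.0% and 16.2% (Lgr5+) and 15.4% and 18.8% (Lgr5-). The mean was 14.4% ± 0.861 in Tspan8hi and 16.3% ± 1.71 in Tspan8- libraries (SD, n = 4 per side), with p = 0.0571 in an exact two-sided permutation test. Replicate 2 of Lgr5-Tspan8- was the highest library in this share, and it was also the highest at 58 of 74 members. Replicate 1 of Lgr5+Tspan8hi was lowest in the share and at 32 members. With loess offsets, which level each library against H3K27me3 density over all genes, the members' median log2 fold change was -0.03, and 43 of 74 lay below 0, against 50% of genes. An unadjusted p under 0.05 was then found at 8 members (10.8%), 5 of them lower, close to the 9.26% of all genes. Meis2 then had a log2 fold change of -0.19 and Evx1 of -0.30. Without replicate 2 of Lgr5-Tspan8-, which leaves replicate 1 as the only library of that subpopulation, the members' median was -0.14, against 0.01 over all genes. Without replicate 1 of Lgr5-Tspan8-, which leaves replicate 2 as the only library of that subpopulation, 26 members were called lower (35.1%), but calls over all genes also rose to 5.26%. Without replicate 2 of Lgr5-Tspan8hi 5 members were called (6.76%), 4 lower and 1 higher, against 2.54% of all genes.

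**Figure D3:**
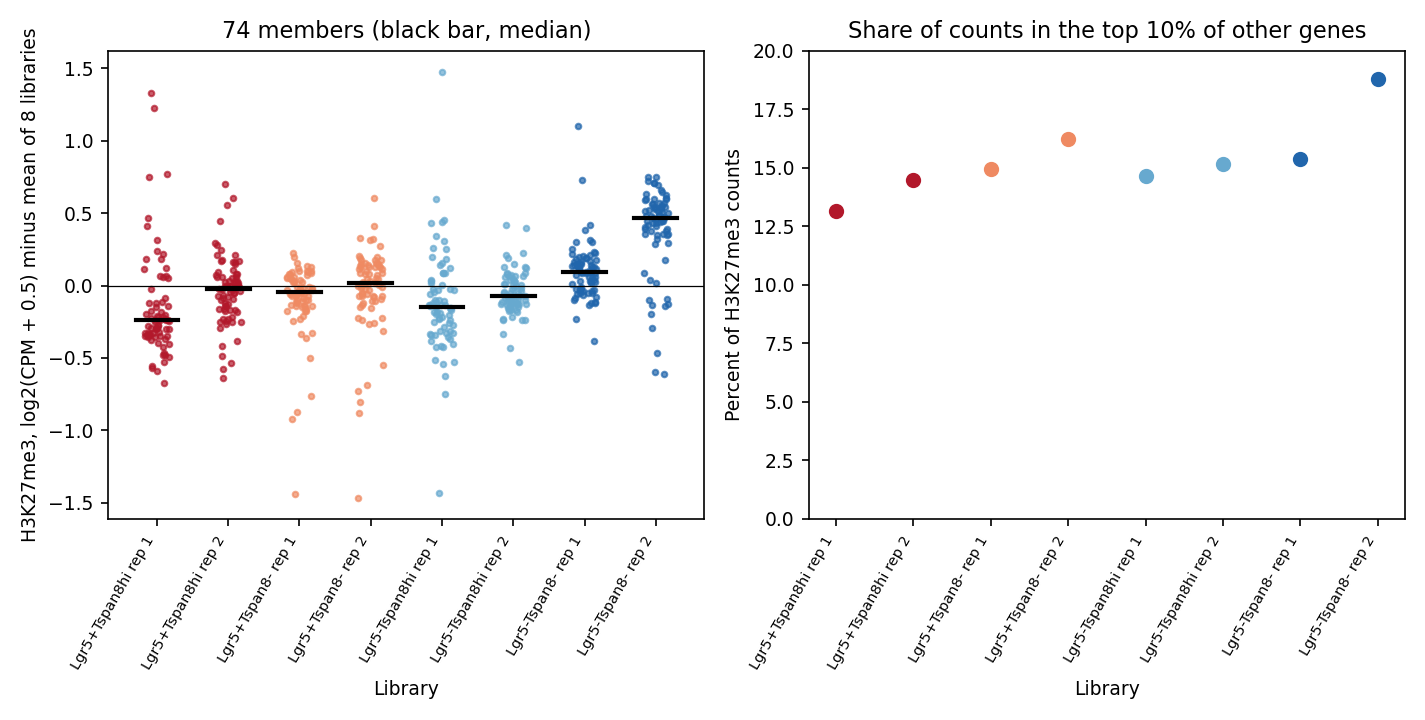
Left, H3K27me3 of 74 members in each of 8 libraries as log2(CPM + 0.5) minus the mean of the 8 libraries, with a black bar at the median. Right, the percent of H3K27me3 counts in the densest 10% of other genes, where replicate 2 of Lgr5-Tspan8- is highest in both panels (18.8% of counts) and replicate 1 of Lgr5+Tspan8hi lowest (13.1%).

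The family medians of both marks were also compared over the 4 subpopulations. The median H3K27me3 density of all members was 5.79 CPM per kb in Lgr5+Tspan8hi, 6.35 in Lgr5+Tspan8-, 5.38 in Lgr5-Tspan8hi and 7.36 in Lgr5-Tspan8- cells. Lgr5-Tspan8- cells had the highest family median in 13 of 16 families, all but Irx, Meis and Pbx, and Lgr5+Tspan8hi cells the lowest in 12. With replicate 1 alone standing for Lgr5-Tspan8- cells, the first number was 7 of 16. In H3K4me3 too Lgr5-Tspan8- cells most often had the highest family median, in 9 of 16 families. With replicate 1 alone this number was again 9. In the test for any H3K27me3 difference among the subpopulations no member was called by edgeR, where 0.529% of genes were. In that test 35 members had an unadjusted p under 0.05 (11.1% of all genes). DESeq2 and limma-voom called 9 members each, and 1.74% and 1.81% of all genes. Lhx9, Irx4 and Dlx5 had the smallest p, with edgeR adjusted p of 0.0768, 0.0848 and 0.0963.

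The Lgr5 comparison was made over both Tspan8 states. No member was called in H3K27me3 by edgeR (0.0407% of genes were), DESeq2 or limma-voom, and 12 of 74 had an unadjusted p under 0.05, against 7.19% of all genes. All 12 were lower in Lgr5+ libraries, against 4.11% of genes lower and 3.08% higher. The members' median log2 fold change was -0.15 and 63 of 74 lay below 0, against 51.0% of genes. With loess offsets the median was 0.01 and 34 lay below 0, and without replicate 2 of Lgr5-Tspan8- the median was -0.04. Emx2, a factor of kidney, gonad and forebrain, had the smallest p. Its H3K27me3 was 8.53, 7.78, 9.92 and 10.6 CPM per kb in Lgr5+ libraries and 14.8, 10.2, 11.6 and 16.6 in Lgr5- libraries. The sides overlapped in 1 library each, the log2 fold change was -0.53 ± 0.13 and the edgeR adjusted p 0.185. Dlx5, Gbx2, Gsx2, Msx3 and Nkx3-2 followed at -0.44 to -0.50 with edgeR adjusted p from 0.335 to 0.544. No member had Lgr5+ libraries that lay apart from the Lgr5- libraries, where 1.51% of genes were lower and 2.10% higher in that way. All 3 Msx genes lay below 0, at -0.50 for Msx3, -0.39 for Msx2 and -0.36 for Msx1. They stayed below 0 with loess offsets, with a median of -0.24 and unadjusted edgeR p from 0.111 to 0.274. The same held for the 2 Gsx and 3 Pitx genes, with loess medians of -0.19 and -0.07.

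**Figure D4:**
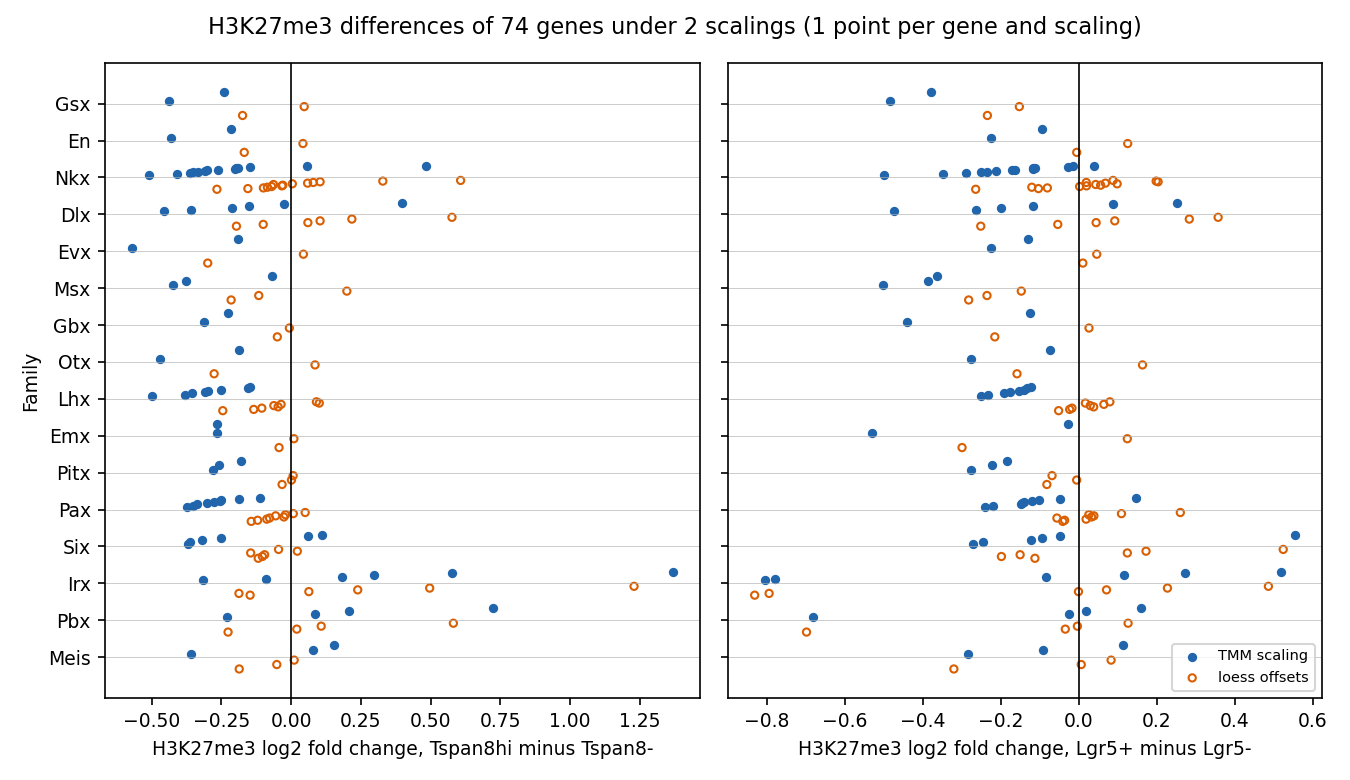
H3K27me3 log2 fold changes of 74 genes by family for Tspan8hi minus Tspan8- (left) and Lgr5+ minus Lgr5- (right), with TMM scaling as filled and loess offsets as open points, 1 point per gene and scaling. The median moves from -0.25 to -0.03 on the left and from -0.15 to 0.01 on the right.

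No H3K4me3 difference between subpopulations passed the test at a member. Of 73 members tested, 0 were called by edgeR, DESeq2 or limma-voom in any of the 4 tests. The shares of all 19009 genes called by edgeR were 0.0473% for Tspan8, 0.0421% for Lgr5, 0.0894% for any difference and 0% for the interaction. At an unadjusted p under 0.05 there were 5 members for Tspan8, 2 for Lgr5, 4 for any difference and 1 for the interaction, against 5.90%, 4.98%, 5.27% and 4.20% of genes, which for 73 members is near the background. For Tspan8, 2 were lower and 3 higher (3.41% and 2.49% of genes), for Lgr5 both were lower (2.43% lower and 2.55% higher), and for the interaction the 1 was above 0 (2.05% above and 2.15% below). In the Tspan8 comparison of H3K4me3 47 of 73 members lay below 0 (64.4%, against 50.4% of genes), with a median of -0.08. With loess offsets 40 lay below 0 (54.8%, against 48.4%). Meis2 had 62.5, 66.9, 70.7 and 69.4 CPM in Tspan8hi and 41.9, 56.2, 53.1 and 57.8 CPM in Tspan8- libraries, which did not overlap. Its log2 fold change was 0.38 ± 0.16 with an edgeR adjusted p of 0.779. It was the 1 member whose sides did not overlap, where 1.48% of genes were higher and 1.60% lower in that way. In the Lgr5 comparison of H3K4me3 no member had such sides, where 1.58% of genes were higher and 1.26% lower. Lhx6 was also higher in H3K4me3 (0.46 ± 0.20, edgeR adjusted p = 0.779) and lower in H3K27me3, and Irx2 was higher in both (0.25 ± 0.10 and 1.37 ± 0.41, edgeR adjusted p = 0.779 and 0.136). These 3 were the members with an unadjusted p under 0.05 in both marks. The H3K27me3 difference at Irx2 rests on 5 counts in each Lgr5+Tspan8- library. In Lgr5- cells Irx2 had 0.579 and 0.364 CPM per kb in Tspan8hi and 0.639 and 0.338 in Tspan8- libraries, which overlapped. Msx3, En2 and Nkx1-1 had lower H3K4me3 at -0.38, -0.40 and -0.55, with edgeR adjusted p from 0.782 to 0.847, and Nkx1-1 ranged from -1.05 to -0.26 with 1 library left out.

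In the Lgr5 comparison of H3K4me3 the heart gene Nkx2-5 had a log2 fold change of -0.95 ± 0.47 on means of 6.02 ± 3.41 and 11.1 ± 1.97 CPM (SD, n = 4 each, edgeR adjusted p = 0.971). Gbx2, Nkx2-1, Irx2 and Dlx6 lay between -0.19 and -0.53, all with an edgeR adjusted p of 0.971. Below 0 lay 54 of 73 members, against 49.2% of genes, with a median of -0.14. Pax9, a tooth and thymus gene, had the smallest p of the H3K4me3 interaction, which asks whether the Tspan8 difference is larger in Lgr5+ than in Lgr5- cells. Its libraries had 54.0 and 21.9, 17.9 and 24, 26.0 and 21.7, and 42.6 and 32.3 CPM from Lgr5+Tspan8hi to Lgr5-Tspan8-. The pair of Lgr5+Tspan8hi libraries was further apart than any other, and the interaction was 1.5 ± 0.49 (edgeR adjusted p = 1). Without replicate 1 of Lgr5+Tspan8hi it was 0.745. Nkx2-2 and Emx2 were next at 1.11 and 1.00, and leaving out 1 library moved them to between 0.677 and 1.81 and between 0.616 and 1.42, lowest without replicate 1 of Lgr5-Tspan8hi and of Lgr5+Tspan8-. For any difference among the subpopulations Irx2 and Pax9 had the smallest p in H3K4me3 (edgeR adjusted p = 0.881 and 0.910).

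The interaction of Lgr5 and Tspan8 in H3K27me3 had its largest family median at Irx, though no member was called by edgeR, DESeq2 or limma-voom (0.00905% of genes by edgeR). At an unadjusted p under 0.05 there were 8 members, against 5.5% of genes, 8 of them above 0, against 3.67%, and 0 below, against 1.82%. All 6 Irx genes had an interaction above 0, with a median of 2.01, where the median of all members was 0.25 and that of all genes 0.00. Irx4 (chromosome 13, 73259589 to 73269622) had 2.10 and 1.00 CPM per kb in Lgr5+Tspan8hi and 0.922 and 1.00 CPM per kb in Lgr5-Tspan8- libraries. The Lgr5+Tspan8- libraries had 0.455 and 0.483 and the Lgr5-Tspan8hi libraries 0.601 and 0.678 CPM per kb. The 4 libraries of Lgr5+Tspan8hi and Lgr5-Tspan8- cells all lay above the other 4. This order held at 1.39% of all genes tested, and near that share among members, at 1 of 74, which was Irx4. The interaction was 2.30 ± 0.55 (edgeR adjusted p = 0.270, and 0.0550 to 1 over 15 alternatives, none past the threshold). Without replicate 1 of Lgr5+Tspan8hi it was 1.68. These values rest on 127, 54, 23, 25, 16, 44, 40 and 67 counts. Irx2 had 54, 27, 5, 5, 15, 23, 27 and 22 counts and an interaction of 2.89 ± 0.82 (edgeR adjusted p = 0.539), with both Lgr5+Tspan8- libraries lowest at 0.102 and 0.0993 CPM per kb. Irx3 held 1 to 21 and Irx5 held 7 to 31 counts per library. The family median was 1.04 CPM per kb in Lgr5+Tspan8hi, 0.467 in Lgr5+Tspan8-, 0.555 in Lgr5-Tspan8hi and 0.873 in Lgr5-Tspan8- cells. With loess offsets the Irx median interaction was 1.91. In H3K4me3 all 6 Irx interactions lay below 0, from -0.37 to -0.06, with no edgeR adjusted p under 1. Pax6 followed Irx4 and Irx2 in H3K27me3, at 0.47 ± 0.19 (edgeR adjusted p = 0.833).

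**Figure D5:**
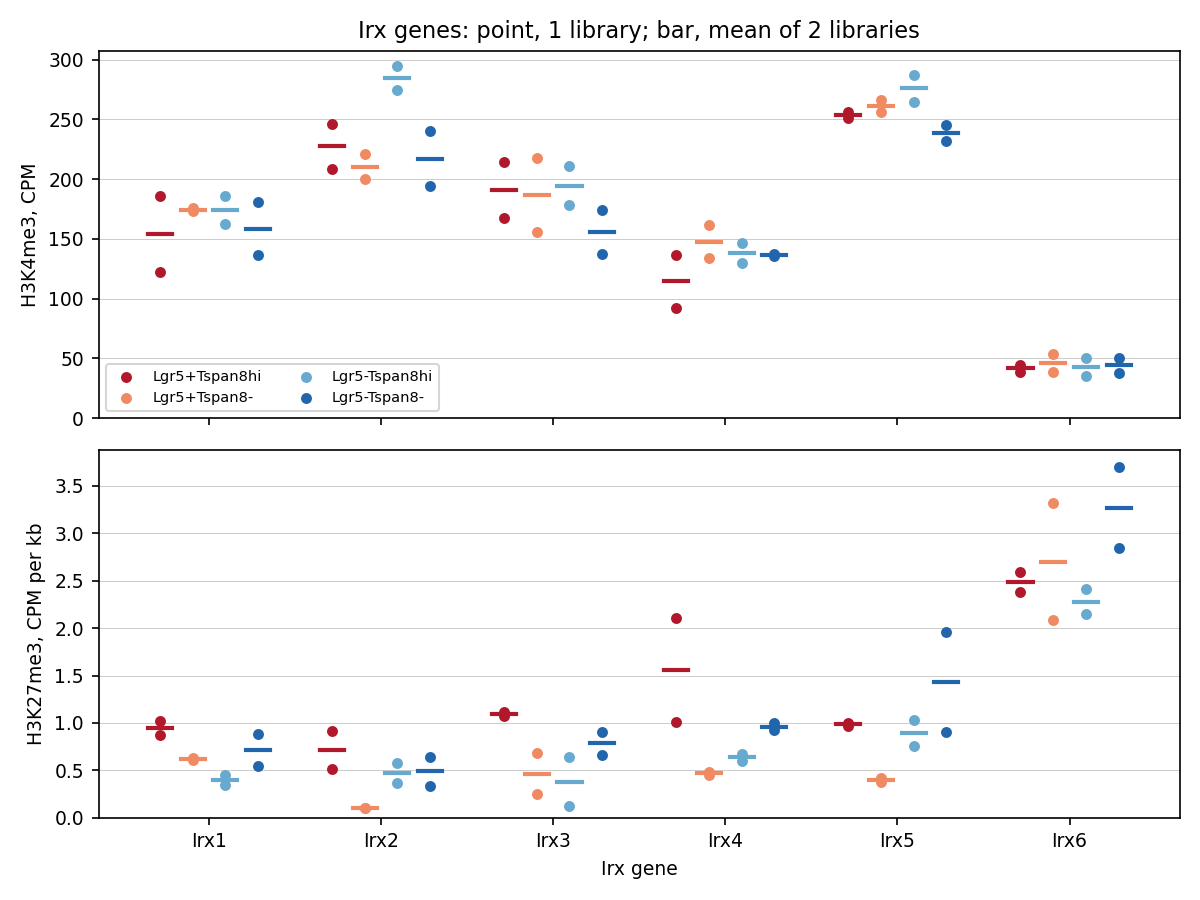
H3K4me3 in CPM (top) and H3K27me3 in CPM per kb (bottom) of the 6 Irx genes, with 1 point per library and a bar at the mean of the 2 libraries of a subpopulation. Irx5 has 232 to 287 CPM of H3K4me3 in every library, and H3K27me3 at Irx4 is highest in an Lgr5+Tspan8hi library (2.10 CPM per kb).

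Partner proteins and further homeobox genes were set beside the members. Of 22 listed cofactors of homeodomain proteins (Tle, Eya, Dach, Lmo, Ldb, Tgif, Pknox and others) 21 were found, with medians of 57.7 CPM of H3K4me3 and 0.432 CPM per kb of H3K27me3. In the Tspan8 comparison of H3K27me3 1 of 21 passed, Lmo2, a LIM-only bridging protein, lower in Tspan8hi libraries at -0.50 ± 0.11 (edgeR adjusted p = 0.0484), with 0 higher. Of all genes 0.335% passed there. Lmo2 had 5.04 CPM per kb of H3K27me3 and 1.35 CPM of H3K4me3, and its values under the alternatives are not reported here. Dach2 and Eya1 were next at -0.32 and 0.41 (edgeR adjusted p = 0.0706 and 0.0832). No cofactor passed in the other 7 tests of the 2 marks by edgeR. In these 2 to 7 had an unadjusted p under 0.05, against 4.20% to 11.1% of all genes. The 45 other homeobox genes had medians of 19.1 CPM and 7.45 CPM per kb. Of these Barx2 and Lmx1b passed for any H3K27me3 difference among the subpopulations (edgeR adjusted p = 0.0405 and 0.0479), where 0.529% of all genes did. None of the 45 passed in the other 7 tests. The median of these 45 in the Tspan8 comparison of H3K27me3 was -0.24 with 41 of 45 below 0. That of 39 Hox genes was -0.26 with 38 of 39 below 0, near the -0.25 of the members. With loess offsets these medians were -0.03 and -0.07. No Hox gene passed in any of the 8 edgeR tests. In the Tspan8 comparison of H3K27me3 16 of 39 had an unadjusted p under 0.05, against 12.9% of all genes.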

How the data were processed

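H3K4me3 and H3K27me3 ChIP-seq of 4 sorted basal subpopulations was used, 2 libraries each. Inputs (8 of 24 samples) were not analysed here. The authors deposited raw counts per Entrez gene, which per the submitters' processing notes came from featureCounts and build mm10. For aligner, versions, annotation and region counted the entry is: not given in the sources used here. RefSeq (GRCm38.p6) supplied symbols for 25189 of 27080 genes, spans and promoters.

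Each mark was fitted on its own (edgeR 4.0.16, robust quasi-likelihood, TMM, filterByExpr, 8 libraries, 4 group means, 4 residual degrees of freedom), with p adjusted by Benjamini-Hochberg over all genes tested and a threshold of 0.05. Each fit gave the Tspan8 and Lgr5 differences averaged over the other marker, their interaction, and any difference among the 4. The H3K4me3 filter removed 1 member, Pax4. Alternatives were DESeq2 1.42.0, limma-voom (limma 3.58.1), RLE factors, library totals, loess offsets (span 0.3), other filters, a replicate block, each library left out, members without overlapping or near neighbours, and CPM not per kb.

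Named members were, per mark, the 6 with the smallest p for Tspan8 and for Lgr5 and the 3 for the other tests, each family's highest (in families of 4 or more also lowest) levels, and Msx1, Msx2, Meis1, Lhx2, Irx3 and Pax6 among others; some genes that the rule names are not reported here. Others were chosen after their values were seen. The members and lists were chosen with earlier results of these data known. Tested on simulated data for the Tspan8 comparison, 19.4%, 80.6% and 98.5% of genes changed 1.5, 2 and 3-fold in H3K27me3 were recovered (21558 genes), and 25.4%, 91.0% and 100% in H3K4me3 (18147 genes). The simulation gave all genes the same relative spread and the libraries no difference in the share of counts on dense genes. Recovery in the real data may therefore differ.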

Additional observations from a re-analysis of the deposited data

Results flagged for a closer look

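H3K27me3 at Pax3 in replicate 2 of Lgr5-Tspan8- was 8.20 CPM per kb, while the other 3 Tspan8- libraries lay between 6.17 and 6.29 CPM per kb. The gap was 0.937 of the range of the 4 libraries, above Dixon's 95% limit for 4 samples. It was the 1 such value in 48 sets of 4 libraries, where chance alone gives about 1 in 20.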

How the results depend on the processing

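Members called in H3K27me3 numbered 0 in all tests as reported. For any difference among the subpopulations they were 9 with DESeq2, 9 with limma-voom, 11 with no filter and 17 with a replicate block (1.74%, 1.81%, 1.28% and 3.03% of all genes called), and 0 to 29 with 1 library left out, where up to 4.15% of all genes were called (29 without replicate 1 and 0 without replicate 2 of Lgr5-Tspan8-, 8 without replicate 2 and 3 without replicate 1 of Lgr5-Tspan8hi, 1 without replicate 2 of Lgr5+Tspan8hi). For Tspan8 they were 8 with DESeq2, 6 with limma-voom, 6 with no filter, 2 with a mean of at least 5 CPM and 11 with the replicate block (2.15%, 1.54%, 1.17%, 0.867% and 3.07% of all genes), and 0 to 26 with 1 library left out (up to 5.26%). For Lgr5 they were 1 with the replicate block (0.362%) and 0 to 1 with 1 library left out (up to 0.700%). A subpopulation left with 1 library is assumed to vary like the others. Differences of replicate 1 minus replicate 2 across genes correlated between subpopulations at 0.027 to 0.3 in H3K27me3 and 0.034 to 0.251 in H3K4me3. The labels do not say that a replicate number marks a shared batch, so replicates were not treated as pairs. In H3K4me3, and in the interaction of either mark, 0 members were called under every alternative run.

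The members' median H3K27me3 log2 fold change was -0.0344 for Tspan8 and 0.0132 for Lgr5 with loess offsets, and ranged from -0.387 to -0.137 and from -0.262 to -0.0364 with 1 library left out. The H3K4me3 median for Tspan8 ranged from -0.146 to 0.012. Without the 43 members that overlap or start near another gene the median H3K4me3 was 36.5 CPM (26.7 with them), and per gene, not per kb, 20 members (57 per kb) lay in the densest 10%. Because no member was called in the main tests, there was no call to reverse. The median for Lgr5 in H3K27me3 (-0.151 as reported) and that for Tspan8 in H3K4me3 (-0.0777) changed sign under an alternative. Of the values of named members, 438 kept their side of the threshold and 39 passed it under an alternative only. The cause of these shifts was not tested. Low counts limit the H3K27me3 values of Irx genes.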

Other observations

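Members that lie next to each other on a chromosome could differ in H3K27me3 per kb while sharing a class. Nkx2-4 and Nkx2-2, which lie 91.0 kb apart on chromosome 2, had 13.6 and 3.94 CPM per kb of H3K27me3. Their spans are 2103 and 18950 bases, and undivided by span the order was reversed, at 28.5 and 74.7 CPM. Both had dense H3K27me3 with H3K4me3 below the median gene. Dlx6 and Dlx5, 9.80 kb apart on chromosome 6, were alike at 9.27 and 10.5 CPM per kb but did not share a class. H3K4me3 lay below the median gene at Dlx6 (24.7 CPM) and above it at Dlx5 (36.5 CPM). These pairs were chosen after their values were seen, and no difference between neighbours was tested.

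The 7 members whose H3K27me3 was in the densest 10% in some but not all libraries included Otx2 and Pax4 (7 of 8 libraries each), Dlx3 and Meis2 (5 each), Irx6 (3) and Pax8 (1). For H3K4me3, 30 members lay above the median gene of the library in all 8 libraries, 25 in none and 19 in some.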
